A study of Homo sapiens with 3 samples.

Results

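The genes described here are those of the mitochondrial genome, taken as every row of the count table whose chromosome is given as MT. They number 22 of the 21726 genes listed, and comprise 13 messenger RNA genes, 2 ribosomal RNA genes and 7 transfer RNA genes by the table's own class column. RNA was sequenced from PC3-Luc cells, a luciferase-carrying form (pMSCV-luc) of PC3, a prostatic adenocarcinoma line that grows without androgen. The tested lines carry short hairpins against CTHRC1 and are labelled sh718 and sh720, the control line carries a control hairpin, and all 3 lines carry the luciferase construct. Each line gave 3 libraries from cells kept for 24 h in 6-well plates. The labels say neither that replicate libraries came from separate cultures nor whether a line is 1 clone. The p-values therefore cover the spread of these libraries, which may be technical, and effects of a hairpin, of a clone and of CTHRC1 cannot be told apart. The study is about CTHRC1, a secreted glycoprotein, in bone metastasis of prostate cancer, and the comparisons ask which transcripts differ when CTHRC1 is lowered by either hairpin.

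The mitochondrial genome is a small circular DNA kept in many copies per cell. It is read from both strands by the RNA polymerase POLRMT with the factors TFAM and TFB2M into long transcripts that cover many genes. The transfer RNAs lie between most of the messengers, and cutting them out releases the messengers and the ribosomal RNAs. All messengers encode core subunits of the oxidative phosphorylation complexes I, III, IV and V, whose other subunits are made from nuclear genes. Because the genes are transcribed together, differences between them are known to come in large part from RNA processing and decay, for which LRPPRC, FASTK family proteins and the SUPV3L1 helicase are examples.

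Each library had 883663 to 1108960 counts. The mitochondrial genes held 12.7% to 15.2% of the counts of an sh718 library and 11.96% to 15.1% of an sh720 library, against 14.4% to 16.4% of a control library. CTHRC1, the targeted gene, had 2, 2 and 1 counts in the sh718 libraries and 18, 19 and 10 counts in the sh720 libraries, against 88, 117 and 126 counts in the control libraries. Its log2 change was -5.92 (SE 0.31, adjusted p = 3.239e-25) in sh718 and -2.87 (SE 0.19, adjusted p = 2.29e-19) in sh720. Every log2 change and adjusted p here comes from edgeR's quasi-likelihood test with Benjamini-Hochberg adjustment over the 9556 genes with at least 60 counts summed over the 9 libraries, and genes with an adjusted p under 0.05 are termed called. Levels are in CPM, the counts divided by library size after TMM scaling. KRT8 and KRT18, keratins of PC3 cells, were present in every library, while CDH1, another of the 4 epithelial markers looked for, missed the count minimum. Of 5 markers of androgen-driven luminal prostate cells, 3 were among the listed genes and 1 was tested, called in neither line. These markers summed to 22.7 to 30.3 CPM in sh718 libraries and 29.4 to 36.4 CPM in sh720 libraries, against 27.4 to 40.1 CPM in control libraries. The fibroblast and leukocyte markers all missed the count minimum, with summed levels of 1.98 to 4.65 CPM and 1.98 to 2.32 CPM in sh718 libraries, 1.02 to 6.71 CPM and 0.96 to 2.03 CPM in sh720 libraries, and 4.45 to 5.48 CPM and 0 CPM in control libraries.

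Several of the sequences bear on what a count can mean here, and they are given from GENCODE version 29 on GRCh38, 5′ to 3′. The first pair is the 3′ end of MT-ATP8, at M:8507-8572 on the plus strand, and that of MT-ND4L, at M:10707-10766 on the plus strand. Each of these genes shares a messenger with the gene after it, and capitals mark the bases that also belong to that gene, 46 of them shared with MT-ATP6 and 7 with MT-ND4.
MT-ATP8 end: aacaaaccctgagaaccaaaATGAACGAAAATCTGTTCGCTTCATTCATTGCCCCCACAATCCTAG
MT-ND4L end: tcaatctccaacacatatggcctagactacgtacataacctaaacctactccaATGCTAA
The second set is the 3 transfer RNA genes that had enough counts to be tested. They lie on the minus strand, at M:5826-5891 (MT-TY, for tyrosine), M:5761-5826 (MT-TC, for cysteine) and M:15956-16023 (MT-TP, for proline), and are printed whole, on their own strand and with no capitals.
MT-TY: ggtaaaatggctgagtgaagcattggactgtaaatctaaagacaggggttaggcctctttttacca
MT-TC: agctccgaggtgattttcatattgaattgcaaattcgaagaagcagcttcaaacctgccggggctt
MT-TP: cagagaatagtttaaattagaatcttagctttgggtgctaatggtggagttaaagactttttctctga
All 3 are shorter than the 75-base reads, so a read that covers 1 of them must be clipped to it or reach into neighbouring sequence. The last pair shows why counts of MT-ND1 and of its nuclear copy MTND1P23 on chromosome 1 are uncertain. It sets M:4093-4262 beside 1:629263-629432, both on the plus strand, and the capital marks the 1 base in 170 at which they differ.
MT-ND1 stretch: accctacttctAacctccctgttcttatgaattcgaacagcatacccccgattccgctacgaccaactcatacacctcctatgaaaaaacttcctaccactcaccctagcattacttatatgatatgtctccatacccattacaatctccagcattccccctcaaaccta
MTND1P23 stretch: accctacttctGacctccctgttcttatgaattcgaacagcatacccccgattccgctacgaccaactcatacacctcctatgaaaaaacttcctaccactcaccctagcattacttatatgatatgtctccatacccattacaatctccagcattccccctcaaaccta
The longest identical run between this copy and MT-ND1 was 158 bases, which is longer than a read.

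In the main edgeR fit, the mitochondrial messengers called in either knockdown line were nearly all lower than in control cells. In sh718 this did not hold when the trend of the change with GC content and length over all genes was removed, as given below. The RNAs of MT-ND1, MT-ND3 and MT-CYB, all core subunits of complexes I or III, fell in sh718 and in sh720. MT-ND4 fell in sh718, and MT-ATP6 fell in sh720 while its log2 change in sh718 was 0.03, with an interval of -0.08 to 0.15, and was called higher under other corrections given with its values. The 12S ribosomal RNA MT-RNR1 was called higher in sh718, a call that was lost with other estimates of the spread between libraries.

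Of the 22 genes, 18 passed the count minimum and were tested. In sh718, 2 of the 18 were called higher and 9 lower, where 20.3% of all tested genes were called, 9.3% higher and 11% lower. In sh720, 1 was called higher and 7 lower, where 6.79% of all tested genes were called, 3.31% higher and 3.48% lower. Among the 13 messengers alone, 1 rose and 8 fell in sh718. In sh720, 7 fell and edgeR called 0 higher, with 0 higher at an unadjusted p under 0.05 and 0 with DESeq2. The median log2 change of the messengers was -0.17 in sh718 and -0.17 in sh720, beside medians over all tested genes of -0.0042 in sh718 and -0.0034 in sh720. With the trend of the change with GC content and length over all genes removed, the messenger median was 0.0052 in sh718 and -0.1421 in sh720. The medians over all genes in that fit were 0.0338 in sh718 and -0.0009 in sh720. The libraries of the line did not overlap those of control cells for 8 of the 18 genes in sh718, 7 of them lower, and for 9 in sh720, 8 of them lower, where 33.5% and 23.5% of all tested genes did not overlap. MT-ND1, MT-ND2, MT-CO1, MT-CO2, MT-ND3 and MT-CYB were lower in both lines. That is 6 of 18, where 1.45% of all tested genes were lower in both, and both comparisons use the same control libraries. With DESeq2 only MT-ND1, MT-ND3 and MT-CYB were called lower in both. The share of 1.45% is mostly over genes with fewer counts, where a change is harder to call. Of the tested nuclear genes, 766 were at least as abundant as the least abundant mitochondrial messenger. By edgeR and by DESeq2, 0 of the 18 were higher in both, also 0 at an unadjusted p under 0.05, where 0.806% of all tested genes were higher in both by edgeR. In bulk RNA, less of a transcript in each cell and fewer cells that make it cannot be told apart.

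**Figure D1:**
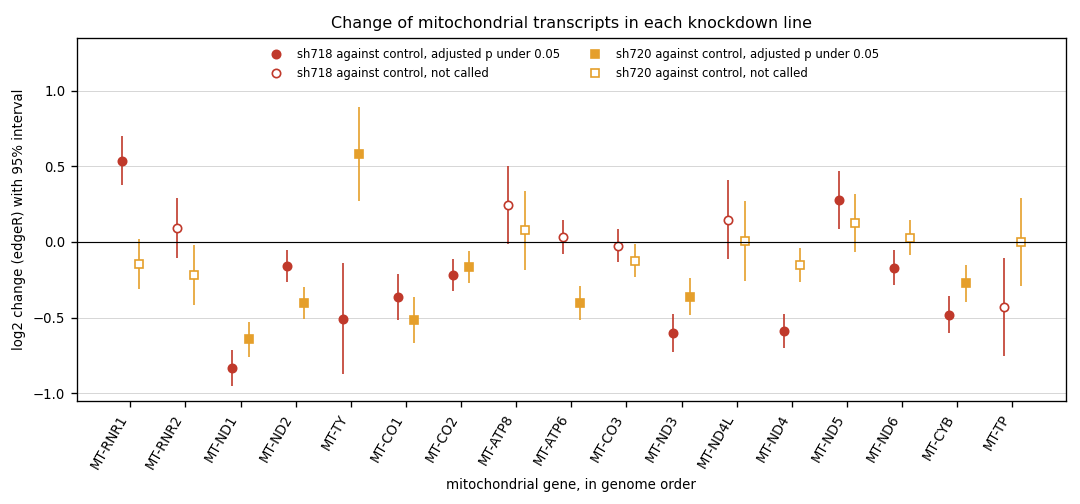
Log2 change of 17 tested mitochondrial genes in sh718 (circles) and sh720 (squares) against control cells, in genome order, with 95% intervals of the edgeR fit; filled symbols are called at an adjusted p under 0.05. MT-ND1 lies lowest in both lines, at -0.83 in sh718 and -0.64 in sh720, and MT-TC is left out because its interval is much wider.

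Of these calls, 4 of the 11 in sh718 (MT-ND1, MT-ND3, MT-ND4 and MT-CYB) and 3 of the 8 in sh720 (MT-ND1, MT-ND2 and MT-ATP6) held under all 23 alternative settings tried. DESeq2 called 0 higher and 5 lower in sh718 and the same numbers in sh720. Over all 9556 tested genes it called 1008 in sh718 (447 higher) and 298 in sh720 (132 higher). Without sh718 library 2, 5 genes were higher in sh718. Without any 1 of sh718 libraries 1 and 3, sh720 library 1 and control libraries 1 and 2, 1 was higher, and without sh718 library 3, 5 were lower in sh718. Without any 1 of sh720 libraries 1 and 2 and control library 1, edgeR called 0 higher in sh720. When the trend of the change with GC content and length over all genes was removed, 5 of the 18 were called higher and 5 lower in sh718, and 1 higher and 6 lower in sh720. When libraries were scaled to the summed mitochondrial messengers, so that a change is relative to the other messengers, 7 were higher and 4 lower in sh718, and 3 higher and 4 lower in sh720. That scaling moved the median change of all tested genes to 0.24 in sh718 and 0.23 in sh720, and called 2335 of 2806 genes higher in sh718 and 1350 of 1463 in sh720, beside 889 of 1944 in sh718 and 316 of 649 in sh720 with TMM scaling.

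As a share of all counts of a library, the 13 messengers held 7.15%, 7.50% and 7.07% in sh718 and 7.95%, 7.88% and 7.24% in sh720, against 9.03%, 8.64% and 8.52% in control cells. The means were 7.24% ± 0.23 in sh718 and 7.69% ± 0.39 in sh720, against 8.73% ± 0.26 in control cells (SD, n = 3 each). Every knockdown library was below every control library. The 2 ribosomal RNAs held 7.08% ± 1.65 in sh718 and 5.85% ± 1.23 in sh720, against 6.57% ± 1.25 in control cells (SD, n = 3 each), and here the lines overlapped. The 7 transfer RNA genes held 85 to 117 counts in an sh718 library and 165 to 190 in an sh720 library, against 113 to 157 in a control library.

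**Figure D2:**
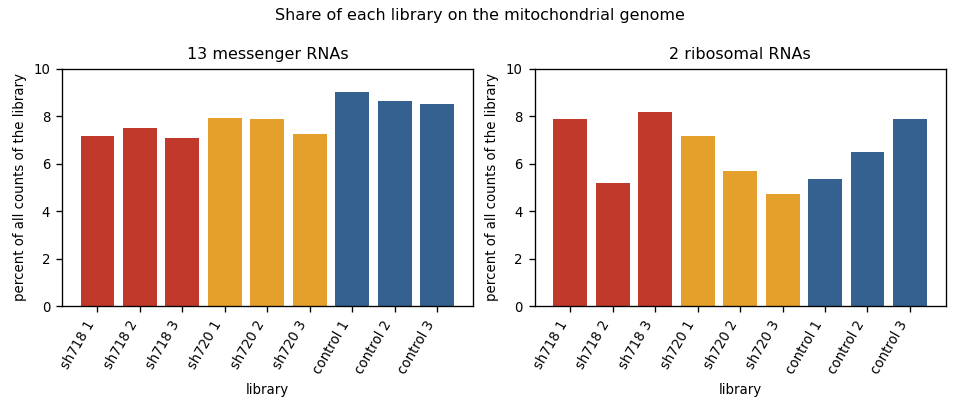
Percent of all counts of each library on the 13 mitochondrial messengers (left) and the 2 mitochondrial ribosomal RNAs (right), 1 bar per library, by line. The messenger share of every sh718 and sh720 library is below 8%, and that of every control library is above 8.5%, while the ribosomal RNA share ranges from 4.71% to 8.17% with no such order.

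The ribosomal RNAs come first in the direction of transcription. MT-RNR2 (M:1671-3229), the 16S RNA of the large mitochondrial ribosomal subunit, was the most abundant mitochondrial gene per length. Its level was 41829 ± 10237 CPM per kilobase in sh718 and 33706 ± 8547 in sh720, against 39216 ± 8280.2 in control cells (SD, n = 3 each). It had 73732, 46799 and 75103 CPM in the sh718 libraries and 66998, 49897 and 40748 CPM in the sh720 libraries, against 48472, 60662 and 74277 CPM in the control libraries, and the lines overlapped widely. The log2 change of MT-RNR2 was 0.09 (SE 0.10, adjusted p = 0.5646) in sh718 and -0.22 (SE 0.10, adjusted p = 0.2081) in sh720, neither called. Without sh718 library 2 the sh718 value was 0.29 and called (adjusted p = 0.01282), and without control library 1 it was -0.05. Without sh720 library 1 the sh720 value was -0.43 (adjusted p = 0.006057), and without control library 1 it was -0.36 (adjusted p = 0.02744), but without control library 3 it was -0.06 (adjusted p = 0.8602).

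MT-RNR1 (M:648-1601), the 12S RNA of the small subunit, had 7295, 5471 and 9058 CPM in the sh718 libraries and 4255, 5309 and 4039 CPM in the sh720 libraries, against 5108, 4477 and 5440.2 CPM in the control libraries. All sh718 libraries were above all control libraries, although the lowest sh718 library was close to the highest control one. The log2 change was 0.54 (SE 0.08, adjusted p = 6.414e-07) in sh718 and -0.14 (SE 0.08, adjusted p = 0.3569) in sh720. The call in sh718 held in each fit that left out 1 library but not with DESeq2 (adjusted p = 0.07028) or with edgeR's robust estimates of the spread (adjusted p = 0.1284). The SE of 0.08 is smaller than the SE of 0.21 that the spread of this gene's own libraries gives.

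Complex I, the NADH dehydrogenase, takes 7 of its subunits from this genome, and they form much of the membrane arm that moves protons. MT-ND1 (M:3307-4262), the subunit next to the quinone site, had 2339.6, 2313 and 2296 CPM in the sh718 libraries and 2829.7, 2709 and 2376 CPM in the sh720 libraries, against 3876, 3995 and 4489.7 CPM in the control libraries. The groups did not overlap, and the sh718 libraries lay within 1.02 times of each other. Its log2 change was -0.83 (SE 0.06, adjusted p = 4.081e-18) in sh718, which is 56.2% of the control level, and -0.64 (SE 0.06, adjusted p = 2.679e-13) in sh720, which is 64.0%. These were the lowest changes of any tested mitochondrial gene in either line.

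MT-ND3 (M:10059-10404), a small subunit at the hinge of the complex, had 1290.1, 1509.9 and 1348 CPM in the sh718 libraries and 1765, 1664 and 1476 CPM in the sh720 libraries, against 2111, 2095 and 2092 CPM in the control libraries. Both knockdown lines were below control cells, whose libraries lay within 1.01 times of each other. The log2 change was -0.60 (SE 0.06, adjusted p = 9.477e-12) in sh718 and -0.36 (SE 0.06, adjusted p = 1.601e-05) in sh720. The sh720 call was lost only when libraries were scaled to the mitochondrial messengers (log2 change -0.13, adjusted p = 0.1849). MT-ND4 (M:10760-12137), 1 of the proton-pumping subunits, had 10115, 10848 and 9835 CPM in the sh718 libraries and 14814, 14442 and 12482 CPM in the sh720 libraries, against 16506, 14889 and 14902 CPM in the control libraries. It was low in sh718 and near the control level in sh720, with log2 changes of -0.59 (SE 0.06, adjusted p = 8.053e-13) in sh718 and -0.15 (SE 0.06, adjusted p = 0.109) in sh720. The sh720 libraries did not overlap the control ones, and the sh720 change was called without sh720 library 1 (-0.20, adjusted p = 0.04655) and with the library number as a block (-0.15, adjusted p = 0.04162), but without sh720 library 3 it was -0.08 (adjusted p = 0.5815).

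MT-ND2 (M:4470-5511), another proton-pumping subunit, showed the reverse order, with 6913, 6909.6 and 6816 CPM in the sh718 libraries and 5972, 5881 and 5598 CPM in the sh720 libraries, against 8136, 7575 and 7369 CPM in the control libraries. It fell in sh720 with a log2 change of -0.40 (SE 0.05, adjusted p = 4.379e-08). In sh718 the change was -0.16 (SE 0.05, adjusted p = 0.02455), and this call was lost without any 1 of the sh718 libraries or of control libraries 1 and 2 (log2 change -0.17 to -0.12, adjusted p 0.05814 to 0.1805), with DESeq2 (adjusted p = 0.0721), and after removal of the GC and length trend (log2 change 0.01). MT-ND6 (M:14149-14673), the only messenger read from the minus strand, had 3375, 2942 and 2797 CPM in the sh718 libraries and 3594, 3397 and 3476 CPM in the sh720 libraries, against 3485, 3217 and 3553 CPM in the control libraries. The log2 change of MT-ND6 was -0.17 (SE 0.06, adjusted p = 0.03113) in sh718 and 0.03 (SE 0.06, adjusted p = 0.856) in sh720. The sh718 call was lost without sh718 library 2 or 3 or control library 1 or 3 (log2 change -0.16 to -0.10, adjusted p 0.1024 to 0.3244) and with DESeq2 (adjusted p = 0.1557), and removing the GC and length trend put the value at 0.02. The sources do not state the strand setting of the counts, so reads of MT-ND6 and of RNA from the opposite strand cannot be told apart.

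MT-ND5 (M:12337-14148), the longest messenger, had 4936, 2861 and 4769 CPM in the sh718 libraries and 3546, 4693 and 3069 CPM in the sh720 libraries, against 3077, 3318 and 3968 CPM in the control libraries. The lines overlapped, and its log2 change was 0.28 (SE 0.10, adjusted p = 0.03531) in sh718 and 0.12 (SE 0.10, adjusted p = 0.545) in sh720. The sh718 call was lost with DESeq2 (adjusted p = 0.5768), with robust edgeR (adjusted p = 0.5387), and without any 1 of sh718 libraries 1 and 3, sh720 library 1 and control libraries 1 and 2 (log2 change 0.15 to 0.27, adjusted p 0.05568 to 0.3191). Leaving out sh720 library 3 together with sh718 library 2 made the sh720 value 0.26 (adjusted p = 0.009933). MT-ND4L (M:10470-10766), which precedes MT-ND4 on the same messenger, had 895, 425 and 890.3 CPM in the sh718 libraries and 633, 915 and 451 CPM in the sh720 libraries, against 728, 547 and 708 CPM in the control libraries. Its log2 change was 0.15 (SE 0.13, adjusted p = 0.4853) in sh718 and 0.00 (SE 0.13, adjusted p = 0.9923) in sh720, and the sh718 value became 0.44 (adjusted p = 0.001433) without sh718 library 2 and -0.0081 without sh718 library 1.

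MT-CYB (M:14747-15887) encodes cytochrome b, the single mitochondrial subunit of complex III. It had 6047, 7443 and 6626 CPM in the sh718 libraries and 8549, 7704 and 6950.1 CPM in the sh720 libraries, against 9820.3, 9302 and 8935 CPM in the control libraries. Both knockdown lines lay below control cells, with log2 changes of -0.48 (SE 0.06, adjusted p = 4.829e-09) in sh718 and -0.27 (SE 0.06, adjusted p = 0.001179) in sh720. The sh720 call was lost without sh720 library 3 (-0.20, adjusted p = 0.05935) and when libraries were scaled to the mitochondrial messengers (-0.04, adjusted p = 0.6695).

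Complex IV, cytochrome c oxidase, takes its 3 catalytic core subunits from this genome. MT-CO1 (M:5904-7445), which holds the site of oxygen reduction, had 3998, 2741 and 3889.8 CPM in the sh718 libraries and 3386, 3529 and 2641 CPM in the sh720 libraries, against 4300.0, 4537 and 4817 CPM in the control libraries. All knockdown libraries were below all control libraries, with log2 changes of -0.36 (SE 0.08, adjusted p = 0.000225) in sh718 and -0.52 (SE 0.08, adjusted p = 6.902e-07) in sh720. Both calls were lost with DESeq2 (adjusted p = 0.2064 in sh718 and 0.067 in sh720) and with robust edgeR (adjusted p = 0.2187 in sh718 and 0.1704 in sh720). In this gene sh718 library 2 and sh720 library 3 were the lowest of their lines. Without sh718 library 2 the sh718 value was -0.20 (adjusted p = 0.03382). The SE that the spread of this gene's own libraries gives is 0.18. MT-CO2 (M:7586-8269), the subunit that takes electrons from cytochrome c, had 13416, 14755 and 13000.0 CPM in the sh718 libraries and 15048, 14025 and 13596 CPM in the sh720 libraries, against 16563, 16108 and 15220.3 CPM in the control libraries.

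The MT-CO2 changes were small, at -0.22 (SE 0.05, adjusted p = 0.002044) in sh718 and -0.17 (SE 0.05, adjusted p = 0.04999) in sh720. The sh718 call was lost without sh718 library 3 (-0.17, adjusted p = 0.06657) and after removal of the GC and length trend (-0.06, adjusted p = 0.4253). The sh720 call stood in 7 of 23 alternatives and was lost without any 1 of sh718 libraries 1 and 3, sh720 libraries 2 and 3 and control libraries 1 and 2 (log2 change -0.16 to -0.13, adjusted p 0.05881 to 0.2298). MT-CO3 (M:9207-9990), the third core subunit, had 9722, 11136 and 10302 CPM in the sh718 libraries and 10554, 9461 and 9079 CPM in the sh720 libraries, against 10974, 10574 and 10141 CPM in the control libraries. It was not called in either line, with log2 changes of -0.02 (SE 0.06, adjusted p = 0.8197) in sh718 and -0.12 (SE 0.06, adjusted p = 0.2085) in sh720. Without sh720 library 1 the sh720 value was -0.19 (adjusted p = 0.04973), and without sh720 library 3 it was -0.08 (adjusted p = 0.5931).

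Complex V, the ATP synthase, takes MT-ATP6 and MT-ATP8 from this genome. MT-ATP6 (M:8527-9207) forms part of the proton channel. It had 10155, 11715 and 9962 CPM in the sh718 libraries and 8345, 7730.4 and 7426 CPM in the sh720 libraries, against 10501, 10645 and 9936 CPM in the control libraries. The sh720 libraries lay below all others, and the sh718 and control libraries overlapped. The log2 change was 0.03 (SE 0.06, adjusted p = 0.7276) in sh718 and -0.40 (SE 0.06, adjusted p = 1.777e-07) in sh720. In sh718 it was called higher when corrected for GC and length (0.21, adjusted p = 0.002414) and when scaled to the mitochondrial messengers (0.28, adjusted p = 9.476e-05). MT-ATP8 (M:8366-8572), a small subunit read ahead of MT-ATP6 on the same messenger, had 239, 138 and 293 CPM in the sh718 libraries and 185, 206 and 202 CPM in the sh720 libraries, against 164, 164 and 230.3 CPM in the control libraries. Its log2 change was 0.25 (SE 0.13, adjusted p = 0.1963) in sh718 and 0.08 (SE 0.13, adjusted p = 0.8304) in sh720. Without sh718 library 2 the sh718 value was 0.52 (adjusted p = 0.0004769), and without control library 3 it was 0.44 (adjusted p = 0.03664), but without sh718 library 3 it was 0.0035 (adjusted p = 0.99).

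**Figure D3:**
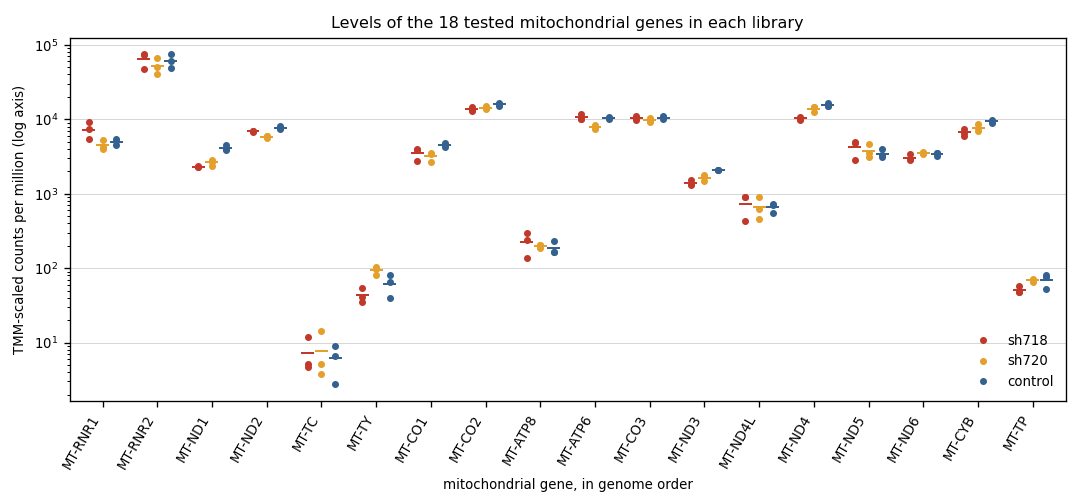
TMM-scaled CPM, on a log axis, of the 18 tested mitochondrial genes in each library, in genome order; each point is a library and each short line the mean of 3. The points of MT-ND1 in sh718 lie between 2296 and 2339.6 CPM, below all control points, while those of MT-RNR2, MT-ND5 and MT-ND4L are spread widely within a line.

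Transfer RNAs adapt codons to amino acids in the mitochondrial ribosome, and their counts were low. MT-TY had 30, 55 and 39 counts in the sh718 libraries and 102, 95 and 84 counts in the sh720 libraries, against 36, 72 and 72 counts in the control libraries. MT-TY changed by -0.51 (SE 0.19, adjusted p = 0.04499) in sh718 and 0.58 (SE 0.16, adjusted p = 0.01131) in sh720. The sh720 libraries were above all others, while the sh718 and control libraries overlapped. The sh718 call was lost without any 1 of sh718 libraries 1 and 3, sh720 library 1 and control libraries 2 and 3 (log2 change -0.51 to -0.30, adjusted p 0.0536 to 0.3567). In sh720 the call did not stand without sh720 library 1 or 2 or control library 1 (log2 change 0.37 to 0.56, adjusted p 0.05234 to 0.2135). Both calls were lost with DESeq2 (adjusted p = 0.1992 in sh718 and 0.1355 in sh720).

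MT-TP had 49, 49 and 46 counts in the sh718 libraries and 70, 64 and 73 counts in the sh720 libraries, against 68, 73 and 57 counts in the control libraries. Its log2 change was -0.43 (SE 0.17, adjusted p = 0.05324) in sh718, just short of a call, and 0.00 (SE 0.15, adjusted p = 0.9995) in sh720. Without sh718 library 1 the sh718 value was -0.50 (adjusted p = 0.04544), and without control library 3 it was -0.63 (adjusted p = 0.007153), but without control library 2 it was -0.30 (adjusted p = 0.2814). MT-TC had 4, 12 and 5 counts in the sh718 libraries and 14, 5 and 4 counts in the sh720 libraries, against 6, 8 and 3 counts in the control libraries, and its log2 change of 0.33 (SE 0.50, adjusted p = 0.7042) in sh718 and 0.37 (SE 0.49, adjusted p = 0.7577) in sh720 cannot be judged at this depth. The other 4 listed transfer RNA genes, MT-TF, MT-TL1, MT-TD and MT-TE, held 1, 8, 10 and 9 counts over all 9 libraries and were not tested.

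The 2 knockdown lines differed from each other over much of the genome. Set directly against sh720, sh718 had 4 of the 18 genes higher and 7 lower, where 25.3% of all tested genes were called, 12.2% higher and 13.1% lower. MT-ND2, MT-ATP6, MT-RNR1 and MT-RNR2 were higher in sh718, and MT-ND1, MT-ND3, MT-ND4, MT-ND6, MT-CYB, MT-TY and MT-TP were lower. For 8 of the 18 genes the libraries of the lines did not overlap, where 37% of all tested genes did not. With the GC and length trend removed, 7 were higher and 2 lower. With DESeq2, 3 were higher and 3 lower, where it called 1293 of all 9556 tested genes, 632 of them higher. Without sh718 library 2, 8 were higher, and without sh718 library 3 or sh720 library 1, 3 were lower.

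Of those 11 differences, 4 held under all 23 alternatives. They were MT-ATP6, with a log2 difference of 0.44 (SE 0.06, adjusted p = 5.749e-09), MT-ND4 with -0.44 (SE 0.06, adjusted p = 6.018e-09), MT-ND2 with 0.24 (SE 0.05, adjusted p = 0.0003776) and MT-TY with -1.09 (SE 0.17, adjusted p = 7.159e-07). The MT-RNR1 difference was 0.68 (SE 0.08, adjusted p = 9.175e-10) and was lost with robust edgeR (adjusted p = 0.05629). For MT-RNR2 it was 0.31 (SE 0.10, adjusted p = 0.01559), lost with DESeq2 (adjusted p = 0.5134) and without any 1 of sh718 libraries 1 and 3 and sh720 libraries 2 and 3 (log2 difference 0.16 to 0.27, adjusted p 0.08849 to 0.3264). MT-ND3 differed by -0.24 (SE 0.06, adjusted p = 0.00281), but this was lost without sh720 library 1 (-0.18, adjusted p = 0.05155) and in the fit corrected for GC and length (-0.09, adjusted p = 0.3113).

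Among the others, MT-ND6 differed by -0.20 (SE 0.06, adjusted p = 0.008066), lost without sh718 library 3 (-0.14, adjusted p = 0.152) and with DESeq2 (adjusted p = 0.05455). The GC and length correction put MT-ND6 at -0.06 (adjusted p = 0.5024), MT-CYB at -0.09 (adjusted p = 0.2543) and MT-ND1 at -0.10 (adjusted p = 0.2432), and DESeq2 lost the calls of MT-CYB (adjusted p = 0.09724) and MT-ND1 (adjusted p = 0.1023). MT-CYB differed by -0.21 (SE 0.06, adjusted p = 0.008609), and this was not called without sh718 library 1 or 3 or sh720 library 1 (-0.19 to -0.13, adjusted p 0.05169 to 0.1601). MT-TP differed by -0.43 (SE 0.16, adjusted p = 0.0431), lost without any 1 of sh718 libraries 2 and 3 and the sh720 libraries (-0.47 to -0.38, adjusted p 0.05775 to 0.1381). Differences that were not called in the fit of all 9 libraries became called without sh718 library 2 for MT-ND5 (0.37, adjusted p = 0.0002125), MT-ND4L (0.43, adjusted p = 0.001364), MT-ATP8 (0.44, adjusted p = 0.002547) and MT-CO1 (0.31, adjusted p = 0.0003114). They also became called without sh720 library 2 for MT-ND5 (0.34, adjusted p = 0.01217), MT-ND4L (0.44, adjusted p = 0.01614) and MT-CO1 (0.23, adjusted p = 0.0495), and without sh720 library 1 for MT-CO3 (0.16, adjusted p = 0.04221).

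Ratios within a library do not depend on how libraries are scaled. For every 100 counts of MT-ND2 there were 146, 157 and 144 of MT-ND4 in sh718 and 248, 246 and 223 in sh720, against 203, 197 and 202 in control cells. The 3 lines did not overlap, with sh718 lowest and sh720 highest. For every 100 counts of MT-CO3 there were 104, 105 and 96.7 of MT-ATP6 in sh718 and 79.1, 81.7 and 81.8 in sh720, against 95.7, 101 and 98.0 in control cells. On this ratio the sh720 libraries lay below all others, and the sh718 and control libraries overlapped. MT-ATP6 and MT-CO3 lie next to each other in the genome. Among the messengers, MT-ND1 made up 3.13% ± 0.07 of the counts in sh718 and 3.52% ± 0.06 in sh720, against 4.70% ± 0.46 in control cells, and MT-ND4 made up 13.9% ± 0.42 in sh718 and 18.6% ± 0.40 in sh720, against 17.6% ± 0.64 in control cells (SD, n = 3 each). These ratios are a description, with no test.

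Counts of messengers that share an RNA were also set against each other, and on both ratios the lines overlapped. MT-ND4L had 8.85, 3.92 and 9.05 counts for every 100 of MT-ND4 in sh718 and 4.27, 6.33 and 3.61 in sh720, against 4.41, 3.68 and 4.75 in control cells. MT-ATP8 had 2.36, 1.18 and 2.94 counts for every 100 of MT-ATP6 in sh718 and 2.22, 2.66 and 2.72 in sh720, against 1.56, 1.54 and 2.32 in control cells. The widest range of both was within sh718. A read in the bases printed in capitals above belongs to both genes of its pair, and the sources do not say how such reads were counted.

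The spread between libraries of 1 line divided the 15 messengers and ribosomal RNAs into those that varied little and 6 that varied much. MT-ND4L, MT-ATP8, MT-RNR2, MT-ND5, MT-RNR1 and MT-CO1 had a pooled SD of log2 CPM within lines of 0.22 to 0.48. The other 9 had 0.05 to 0.13. Among the 766 tested nuclear genes at least as abundant as the least abundant mitochondrial messenger, the median SD was 0.09 and 8 genes, or 1.04%, were above MT-CO1. In some libraries the 6 genes moved together. In sh718 library 2 all 6 were the lowest of the line, by 0.35 to 0.71 below the line's mean log2 level. In sh720 library 3, 5 of the 6 were the lowest of the line, and in control library 3, 5 of the 6 were the highest. In other libraries they parted: in sh720 library 1, MT-RNR2 deviated from the line's mean by 0.38 and MT-ATP8 by -0.09. These genes were chosen by this spread, so it is a description, with no test.

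Of the other 9 messengers, 0 were the lowest of the line in sh718 library 2 and 6 were the highest. In sh720 library 3, 8 of these 9 were also the lowest, so there both sets were low. The 6 genes include MT-ATP8 and MT-ND4L, the messengers with the fewest counts over the 9 libraries, at 1769 and 5965, and also MT-RNR2, with 519547 counts. For the 6, edgeR gave the sh718 change an SE of 0.08 to 0.13, and their own spread gives one of 0.18 to 0.39. For the other 9, edgeR gave an SE of 0.05 to 0.06, and their own spread gives one of 0.04 to 0.10. The SE from their own spread was the larger for all of these but MT-ND2.

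**Figure D4:**
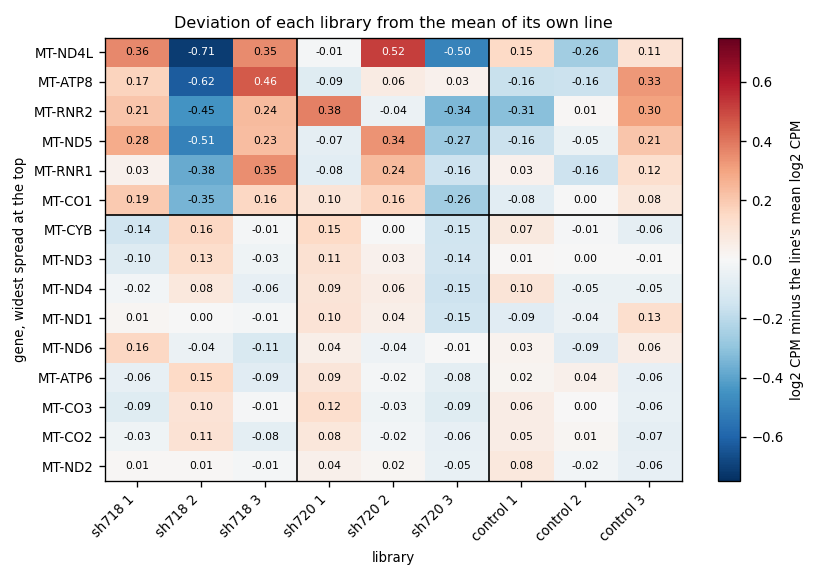
Log2 CPM of each library minus the mean of its own line, for the 15 mitochondrial messengers and ribosomal RNAs, with the widest spread at the top; the horizontal line sets off the 6 widest and the vertical lines separate the lines. The second sh718 column is low for all 6 genes at the top, from -0.71 for MT-ND4L to -0.35 for MT-CO1, and at or above -0.04 for the genes below them.

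Copies of mitochondrial genes in the nuclear genome bear on the counts because their sequences are close to the originals. The table lists 28 named copies with counts, which held 11874 counts in all. They made up 0.120% ± 0.008 of the counts in sh718 and 0.0830% ± 0.0032 in sh720, against 0.206% ± 0.010 in control cells (SD, n = 3 each). MTATP6P1 (1:633696-634376, 98.5% identical to MT-ATP6) had 874 ± 45.7 CPM in sh718 and 651 ± 37.6 CPM in sh720, against 1102 ± 59.4 CPM in control cells (SD, n = 3 each). This copy changed by -0.33 (SE 0.07, adjusted p = 6.67e-05) in sh718 and -0.76 (SE 0.07, adjusted p = 2.539e-14) in sh720, and the sh718 call was lost in the fit corrected for GC and length (adjusted p = 0.06645).

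MTND1P23 (1:629062-629433), 99.1% identical to MT-ND1 over the 352 aligned bases, had 247, 283 and 249 counts in the sh718 libraries and 32, 34 and 41 counts in the sh720 libraries, against 647, 631 and 725 counts in the control libraries. It fell in both lines, by -1.33 (SE 0.08, adjusted p = 3.859e-22) on the log2 scale in sh718 and -4.29 (SE 0.11, adjusted p = 4.122e-42) in sh720, and here sh720 was the lower of the 2. When the counts of each mitochondrial gene and its copies were added, MT-ND1 changed by -0.89 (adjusted p = 4.89e-20) in sh718 and by -0.85 (adjusted p = 1.152e-18) in sh720. The difference of MT-ND1 between the lines, -0.19 (SE 0.06, adjusted p = 0.01606), was then -0.04 (adjusted p = 0.6393) and not called. MTCO2P12 (1:632757-633438, 98.2% identical to MT-CO2) had 1, 3 and 3 counts in the sh718 libraries and 3, 5 and 5 counts in the sh720 libraries, against 165, 152 and 212 counts in the control libraries, and MTND6P3 (5:94568929-94569470) was called in neither line, with log2 changes of -0.41 (SE 0.20, adjusted p = 0.1532) in sh718 and -0.44 (SE 0.20, adjusted p = 0.205) in sh720. MTND6P4, named after its values were seen, had 2, 2 and 1 counts in the sh718 libraries and 23, 20 and 19 counts in the sh720 libraries, against 2, 0 and 0 counts in the control libraries. It was called higher in sh720 (adjusted p = 4.08e-09) and not in sh718 (adjusted p = 0.4489), and DESeq2 gave no adjusted p for sh720.

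Some nuclear genes that make and handle mitochondrial RNA fell in sh718, TFAM and REXO2 among them. Of 16 tested genes for transcription and replication of mitochondrial DNA, 1 rose and 5 fell in sh718, where 20.3% of all tested genes were called, 9.3% higher and 11% lower. The 16 had a median log2 change of -0.23 in sh718 and -0.08 in sh720. In sh718 DESeq2 called 1 of the 16 higher and 3 lower, where it called 1008 of all 9556 tested genes. In sh720 edgeR and DESeq2 each called 0 of the 16, and 2 were lower at an unadjusted p under 0.05. Of 31 tested genes for processing, decay and modification of mitochondrial RNA, 4 fell in sh718, a share near the 11% of all tested genes called lower. Their median log2 change was -0.04 in each line, and DESeq2 called 0 of them higher and 3 lower in sh718. In sh720 edgeR and DESeq2 each called 0 of the 31, and 3 were lower at an unadjusted p under 0.05. Set directly against sh720, sh718 had 1 of the 16 higher and 4 lower, and 1 of the 31 higher and 5 lower, where 25.3% of all tested genes were called. TFAM, which packs mitochondrial DNA and starts its transcription, had 152 ± 11.7 CPM in sh718 and 217 ± 13.2 CPM in sh720, against 209 ± 19.7 CPM in control cells (SD, n = 3 each). It fell in sh718 by -0.45 (SE 0.11, adjusted p = 0.0008333) on the log2 scale and its change in sh720 was 0.06 (SE 0.10, adjusted p = 0.8135). POLRMT, the polymerase, was not called, at 0.28 (SE 0.22, adjusted p = 0.3979) in sh718 and 0.05 (SE 0.22, adjusted p = 0.9318) in sh720. REXO2, a nuclease that clears short RNA, fell in sh718 by -0.43 (SE 0.09, adjusted p = 0.0003222) and was at -0.0037 (SE 0.09, adjusted p = 0.9907) in sh720. SSBP1, which coats single-stranded mitochondrial DNA, was at 0.13 (SE 0.09, adjusted p = 0.3147) in sh718 and -0.09 (SE 0.09, adjusted p = 0.6439) in sh720. GRSF1, an RNA-binding protein of mitochondrial RNA granules, was at -0.06 (SE 0.11, adjusted p = 0.761) in sh718 and 0.06 (SE 0.10, adjusted p = 0.8351) in sh720.

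Further members were picked after their values were seen. TFB2M, which opens the promoters for POLRMT, had 6, 8 and 7 counts in the sh718 libraries and 31, 41 and 37 counts in the sh720 libraries, against 35, 36 and 52 counts in the control libraries, a log2 change of -2.50 (SE 0.29, adjusted p = 1.678e-10) in sh718. SUPV3L1, the helicase that works with the degrading nuclease PNPT1, had 20, 32 and 21 counts in the sh718 libraries and 56, 37 and 52 counts in the sh720 libraries, against 58, 62 and 70 counts in the control libraries, and changed by -1.35 (SE 0.19, adjusted p = 1.064e-07) in sh718. MTERF3, named for transcription termination and known as a repressor of transcription initiation in mouse, changed by -2.17 (SE 0.25, adjusted p = 3.601e-10), and FASTKD3, a regulator of mitochondrial RNA levels, by -1.61 (SE 0.35, adjusted p = 0.0003088) in sh718. In all 4 the sh718 libraries lay below all others. LRPPRC, which stabilises messengers and supports their polyadenylation, changed by -0.41 (SE 0.13, adjusted p = 0.01569) in sh718, but not with DESeq2 (adjusted p = 0.1074) or without sh718 library 1 or 3 or control library 1 (highest adjusted p 0.103). MTERF2, a relative of MTERF3, went the other way, with 14, 18 and 17 counts in the sh718 libraries and 5, 6 and 11 counts in the sh720 libraries, against 4, 3 and 10 counts in the control libraries. It was higher in sh718, by 1.54 (SE 0.38, adjusted p = 0.001844), and this call stood in each fit that left out 1 library.

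Among 8 tested regulators of mitochondrial biogenesis, 1 fell in sh718, where 11% of all tested genes were called lower. In sh720 edgeR and DESeq2 each called 0 of the 8, and 2 were lower at an unadjusted p under 0.05. The gene that fell was MYC, a growth regulator, at -0.59 (SE 0.11, adjusted p = 3.116e-05) in sh718, and its sh720 value was -0.26 (SE 0.11, adjusted p = 0.1413). YY1, a transcription factor of nuclear genes for mitochondrial proteins, was at -0.01 (SE 0.08, adjusted p = 0.9265) in sh718 and 0.04 (SE 0.08, adjusted p = 0.8331) in sh720. The median of the 8 was -0.30 in sh718 and -0.04 in sh720. Of 15 tested markers of mitochondrial mass, 4 fell in sh718, with 1 higher and 3 lower in sh720, where 20.3% of all tested genes were called in sh718 and 6.79% in sh720. DESeq2 called 0 higher and 3 lower in sh718, and 0 higher and 1 lower in sh720. It called 1008 of all 9556 tested genes in sh718 and 298 in sh720. By edgeR, 2 of the 15 were lower in both lines, where 1.45% of all tested genes were, and 1 was called in opposite directions in the 2 lines. VDAC2, a channel of the outer membrane, had 389.5 ± 21.5 CPM in sh718 and 351 ± 14.2 CPM in sh720, against 563 ± 20.8 CPM in control cells (SD, n = 3 each) and fell in both lines, by -0.53 (SE 0.08, adjusted p = 9.69e-08) in sh718 and -0.68 (SE 0.08, adjusted p = 2.237e-10) in sh720. PHB, a scaffold of the inner membrane, fell by -1.15 (SE 0.20, adjusted p = 6.487e-06) in sh718 and -0.75 (SE 0.18, adjusted p = 0.003533) in sh720, and the sh720 call was lost with DESeq2 (adjusted p = 0.07331) and without sh720 library 3 (adjusted p = 0.1138). Of 9 tested mitophagy genes, 3 rose in sh718 and 1 in sh720, with medians of 0.43 in sh718 and 0.26 in sh720, where 9.3% of all tested genes were called higher in sh718 and 3.31% in sh720. BNIP3, a receptor that marks mitochondria for removal and a target of hypoxia signalling, had 347 ± 14.2 CPM in sh718 and 291 ± 19.4 CPM in sh720, against 211 ± 17.98 CPM in control cells (SD, n = 3 each), and its log2 change was 0.71 (SE 0.09, adjusted p = 4.653e-09) in sh718 and 0.46 (SE 0.09, adjusted p = 0.0002382) in sh720.

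The nuclear subunits of the same complexes moved in both directions. Of 35 tested nuclear subunits of complex I, 5 rose and 9 fell in sh718, with 1 higher and 3 lower in sh720. Of all tested genes, 20.3% were called in sh718 and 6.79% in sh720, the shares against which these counts and those of the other complexes stand. The median log2 change of complex I subunits was -0.03 in sh718 and -0.09 in sh720. Of 9 of complex III, 2 rose and 2 fell in sh718, and 1 was lower in sh720, with medians of 0.02 in sh718 and -0.16 in sh720. Of 11 of complex IV, 3 rose and 1 fell in sh718, and 2 were lower in sh720, with medians of -0.03 in sh718 and -0.15 in sh720. Of 18 of complex V, 2 rose and 4 fell in sh718, and 1 was lower in sh720, with medians of -0.11 in sh718 and -0.07 in sh720. DESeq2 called 8 higher and 11 lower over the 4 complexes in sh718, and 1 higher and 4 lower in sh720. Over all 9556 tested genes DESeq2 called fewer than edgeR, 1008 in sh718 (447 higher) and 298 in sh720 (132 higher). UQCRC1, a core subunit of complex III beside the mitochondrial cytochrome b, had 239 ± 21.2 CPM in sh718 and 242 ± 12.001 CPM in sh720, against 361 ± 16.5 CPM in control cells (SD, n = 3 each) and fell in both lines, by -0.60 (SE 0.09, adjusted p = 2.636e-07) in sh718 and -0.58 (SE 0.09, adjusted p = 1.004e-06) in sh720. NDUFB9 of complex I also fell in both, by -0.35 (SE 0.06, adjusted p = 1.638e-05) in sh718 and -0.27 (SE 0.06, adjusted p = 0.00193) in sh720, whereas ATP5F1E of complex V rose in sh718 by 0.36 (SE 0.07, adjusted p = 2.724e-05).

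Several calls of the other nuclear genes named by the same rule did not hold in other fits. NDUFC2, a small membrane-arm subunit of complex I, rose in both lines, by 0.35 (SE 0.12, adjusted p = 0.031) in sh718 and 0.48 (SE 0.12, adjusted p = 0.005095) in sh720. The sh718 call was lost with DESeq2 (adjusted p = 0.1267), and leaving out 1 library gave adjusted p-values up to 0.1797 in sh718 and 0.07034 in sh720. NDUFA8, another accessory subunit, fell in both, by -0.33 (SE 0.12, adjusted p = 0.03717) in sh718 and -0.42 (SE 0.12, adjusted p = 0.01563) in sh720, and both calls were lost with DESeq2 (adjusted p = 0.1859 in sh718 and 0.1091 in sh720). COX7C of complex IV was at 0.19 (SE 0.06, adjusted p = 0.02187) in sh718 and -0.18 (SE 0.06, adjusted p = 0.05447) in sh720, and with 1 library left out the sh718 adjusted p reached 0.09615. ATP5F1B, the catalytic beta subunit of complex V, was at -0.20 (SE 0.06, adjusted p = 0.01828) in sh718, a call lost with DESeq2 (adjusted p = 0.07791), and at -0.02 (SE 0.06, adjusted p = 0.8918) in sh720. UQCRB of complex III was not called, at -0.16 (SE 0.07, adjusted p = 0.08501) in sh718 and -0.15 (SE 0.07, adjusted p = 0.1803) in sh720. COX6C of complex IV was not called either, at -0.17 (SE 0.06, adjusted p = 0.05275) in sh718 and -0.18 (SE 0.06, adjusted p = 0.08248) in sh720. BNIP3L, a mitophagy receptor related to BNIP3, was at 0.28 (SE 0.11, adjusted p = 0.07335) in sh718 and 0.27 (SE 0.11, adjusted p = 0.1582) in sh720.

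**Figure D5:**
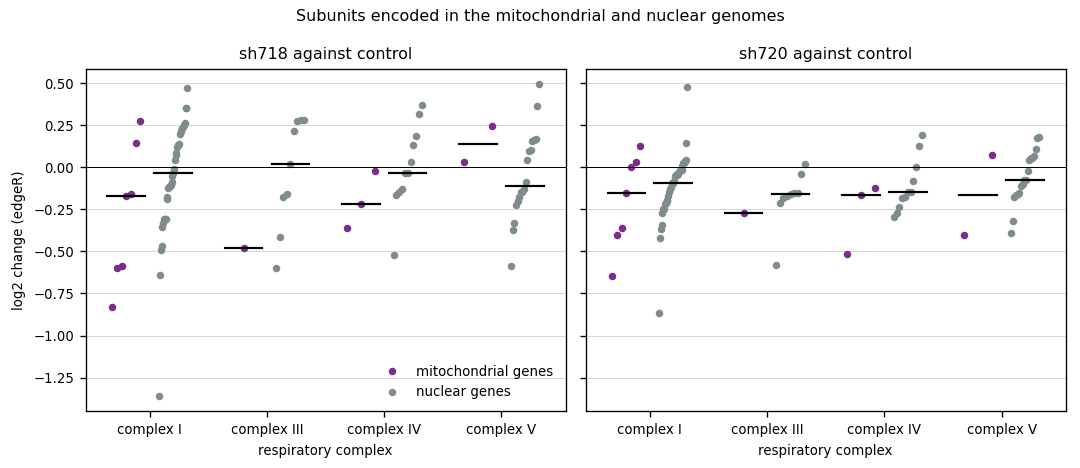
Log2 change of the mitochondrial (purple) and nuclear (grey) subunits of each respiratory complex in sh718 (left) and sh720 (right) against control cells; each point is a tested gene and each black line a median. In sh718 the only mitochondrial gene of complex III, MT-CYB, lies at -0.48 while the nuclear genes have a median of 0.02, and the complex V genes of the mitochondrial genome lie at 0.03 and 0.25.

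Genes that respond to handling and stress were among those that moved with the sh718 line. Where 9.3% of all tested genes were called higher in sh718, 3 of the 5 tested handling genes rose and 0 were called lower. At an unadjusted p under 0.05 in edgeR, 1 of the 5 was lower in sh718. The 3 that rose were the transcription factor JUN at 1.12 (SE 0.12, adjusted p = 8.916e-12), the chaperone HSPA1A at 0.80 (SE 0.15, adjusted p = 2.073e-05) and its partner DNAJB1 at 0.92 (SE 0.12, adjusted p = 9.24e-09). In sh720, HSPA1A was at -0.61 (SE 0.18, adjusted p = 0.02076) and its near-identical copy HSPA1B at -0.91 (SE 0.25, adjusted p = 0.01265), and reads may be shared between these copies. Of the 5, edgeR called 2 lower in sh720, where 3.48% of all tested genes were called lower, and DESeq2 called 0. The summed level of all 8 listed genes was 532 to 585 CPM in sh718 libraries and 264 to 292 CPM in sh720 libraries, against 307 to 332 CPM in control libraries. EPCAM, an epithelial marker, was at -1.39 (SE 0.26, adjusted p = 2.352e-05) in sh718, and the keratins KRT8 at 0.45 (SE 0.10, adjusted p = 0.000854) and KRT18 at 0.22 (SE 0.07, adjusted p = 0.03533) in sh720. The 4 epithelial markers summed to 855 to 926 CPM in sh718 libraries and 1002 to 1101 CPM in sh720 libraries, against 833 to 914 CPM in control libraries. PECAM1, an endothelial marker, was at 1.03 (SE 0.22, adjusted p = 0.0002998) in sh718 and at -0.28 (SE 0.27, adjusted p = 0.6351) in sh720. The endothelial markers summed to 54.6 to 63.7 CPM in sh718 libraries and 13.2 to 30.6 CPM in sh720 libraries, against 24.5 to 26.7 CPM in control libraries. The part of these differences in the mitochondrial values was not tested.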

How the data were processed

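The values analysed are raw counts for each Ensembl gene as deposited by the authors, with no normalization, in 9 libraries, 3 for each of the 3 lines. Per the submitters' processing notes, reads were trimmed with Trim Galore and GRCh38 was used. For aligner, counting program, strand setting, annotation release and library kit the sources used here give nothing, so counts of overlapping genes, opposite strands and near-identical copies are uncertain. The sources state 3000000 single reads of 75 bases per sample.

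From these counts, edgeR 4.0.16 in R 4.3.3 (TMM, glmQLFit, glmQLFTest) fitted all 9 libraries in 1 model of the lines, over genes with at least 60 summed counts, with Benjamini-Hochberg adjustment and a threshold of 0.05. The SE of a log2 change was its size divided by the square root of F. Scaled CPM, shares and ratios were computed from the same counts, and per-kilobase levels used GENCODE version 29 lengths. The spread used log2(CPM + 0.5). In simulated counts with changes set in sh718, the fit recovered 28.3% of 1.5-fold and 71.1% of 2-fold changes. These were in genes of all levels, and 3 unchanged genes were called. A gene that was not called may therefore still have changed. DESeq2 1.42.0, other scalings, count filters, a GC and length correction, added nuclear copies, a block of library numbers and left-out libraries were alternatives. No 2 libraries of a line agreed within sampling noise, with a chi-square per degree of freedom of 1.28 to 2.23. This value sums over all tested genes, the abundant and variable MT-RNR2 included. It does not show extra spread across genes in general, and the part of single genes in it was not computed. Precision is limited by the spread between libraries and, for the transfer RNAs, also by low counts.

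The members and gene lists were chosen with earlier results of these data known. Named genes were CTHRC1, all messengers and ribosomal RNAs, the tested transfer RNAs, POLRMT and TFAM. From each nuclear list came up to 4 members a direction called in both lines, or otherwise the 2 with the highest counts. The 4 nuclear copies with the highest counts were also named, with the MTRNR2L genes left out. Genes outside this rule were named after their values were seen.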

Additional observations from a re-analysis of the deposited data

Results flagged for a closer look

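The results listed here were picked out because the test of sh718 against sh720 itself found that the effects of the 2 lines against control cells differ. Each value is the log2 difference sh718 minus sh720 at an edgeR adjusted p under 0.05. Groups of 3 libraries are too small for a test of single outlying libraries.

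Among the mitochondrial genes, sh718 was higher than sh720 for MT-RNR1 (0.68), MT-ATP6 (0.44), MT-RNR2 (0.31) and MT-ND2 (0.24). It was lower for MT-TY (-1.09), MT-ND4 (-0.44), MT-TP (-0.43), MT-ND3 (-0.24), MT-CYB (-0.21), MT-ND6 (-0.20) and MT-ND1 (-0.19). Of these, MT-ATP6, MT-ND2, MT-ND4 and MT-TY held under all 23 alternatives. The nuclear copies MTND1P23 and MTATP6P1 were higher in sh718 than in sh720, by 2.95 and 0.43.

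CTHRC1 itself was lower in sh718 than in sh720 by -3.05. Among the nuclear genes, TFAM (-0.51), REXO2 (-0.43), MYC (-0.33) and ATP5F1B (-0.18) were lower in sh718 than in sh720, and COX7C (0.37), ATP5F1E (0.25) and BNIP3 (0.25) were higher. The MYC, BNIP3 and ATP5F1B differences were lost with DESeq2 (adjusted p = 0.1168, 0.0967 and 0.1117).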

How the results depend on the processing

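Over the 23 alternatives, calls of mitochondrial genes against control cells kept their direction except with the GC and length trend removed and with scaling to the mitochondrial messengers. With that trend removed, MT-ND2 was at 0.0052 and MT-ND6 at 0.021 in sh718, and at 0.006 and 0.0211 with the replicate block added. With scaling to the messengers, which by construction makes changes relative to their sum, MT-ND2 was at 0.0873, MT-CO2 at 0.0289 and MT-ND6 at 0.0768 in sh718, and MT-CO2 at 0.0678 in sh720. MT-CO3, not called in sh718 with TMM scaling, became a call in the other direction there (0.2231, adjusted p = 0.001639). The count of mitochondrial genes higher in sh718 (2) was 1 with library totals only, 7 with scaling to the messengers, 0 with DESeq2 or robust edgeR, 1 with a stricter count filter, 5 with the GC and length trend removed, with or without the block, and 5 without sh718 library 2 and sh720 library 3, an alternative that, like robust edgeR, was chosen after seeing the data. The count lower in sh718 (9) was 4 with scaling to the messengers and 5 with DESeq2 or the trend removed, with or without the block. In sh720, the count higher (1) was 3 with scaling to the messengers, 0 with DESeq2 and 2 without both libraries, and the count lower (7) was 4 with scaling to the messengers. Between sh718 and sh720, the count higher (4) was 7 with the trend removed, with or without the block, 7 without both libraries and 2 with robust edgeR, and the count lower (7) was 3 with DESeq2 and 2 with the trend removed, with or without the block. Of the nuclear list genes, DESeq2 called 5 lower in sh720 (10 with edgeR), and 17 higher and 14 lower between sh718 and sh720 (28 and 24 with edgeR). The lists held 16, 31, 8, 15, 9, 35, 9, 11 and 18 tested genes, with PHB2 in more than 1 list. Of all tested genes, edgeR called 9.3% higher in sh718, and 3.31% higher and 3.48% lower in sh720. Between the lines it called 12.2% higher and 13.1% lower. Relative to counts off the mitochondrial genome only, the messengers came to 8.45% in sh718 and 8.90% in sh720, against 10.3% in control cells. Leaving out 1 library at a time gave 1 to 5 mitochondrial genes higher and 5 to 9 lower in sh718, 0 to 1 higher and 5 to 10 lower in sh720, and 3 to 8 higher and 3 to 7 lower between sh718 and sh720; for nuclear list genes the ranges were 10 to 16 higher in sh718, and 1 to 3 higher and 5 to 10 lower in sh720. Over all 9556 tested genes, DESeq2 called 1008 in sh718 (447 higher), 298 in sh720 (132 higher) and 1293 between them (632 higher). The cause of these changes was not tested.

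Deviations of same-numbered libraries had correlations of -0.01 to 0.02 over all tested genes. All genes weighed alike there, whatever their counts, and differently numbered libraries were not compared. These values therefore cannot settle whether the library numbers pair the lines. With a replicate block, 1974, 682 and 2425 genes were called in sh718, in sh720 and between them, beside 1944, 649 and 2416 without it; 10 mitochondrial genes were lower in sh718 and 8 in sh720, with MT-TP (adjusted p = 0.04726) and MT-ND4 (adjusted p = 0.04162) added. Low counts limit the transfer RNAs, of which 4 could not be tested; MT-TC missed the count minimum under some alternatives and had no DESeq2 adjusted p in sh720.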
